A study of Mus musculus with 21 samples.

Results

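The transcripts described here encode the receptors for tumour necrosis factor (TNF), the 5 NF-kB transcription factors and 3 proteins that restrain or relay their signals. They were chosen by name: a row of the deposited count table counted as a member when its Ensembl identifier, without its version, mapped to Tnfrsf1a, Tnfrsf1b, Nfkb1, Nfkb2, Rel, Rela, Relb, Nfkbia, Tnfaip3 or Birc3. The rule found 10 of the 54446 identifiers in the table, 1 for each symbol. No measured value entered the rule, but the symbols were listed with earlier results of these data known. All 10 passed the filter on low counts. RNA was sequenced in 21 libraries of haematopoietic stem and progenitor cells sorted from C57BL/6 bone marrow at 12 weeks of age, from wild type (WT) mice and from mice with a knockout (KO) of Phf6, which encodes a chromatin-associated protein. The 3 populations were the long-term stem cells (LT-HSC) and the multipotent progenitors MPP2 and MPP3, sorted on lineage markers, Sca-1, cKit, CD150 and CD48. There were 2 WT and 3 KO libraries of LT-HSC, 4 WT and 4 KO of MPP2, and 4 WT and 4 KO of MPP3. Each was made from 100 to 200 cells. The sources used here do not give the knockout allele or the promoter of any Cre used to make it. Libraries are named by group and number, and the labels name no treatment.

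TNF binds Tnfrsf1a, the receptor found on most cell types, and Tnfrsf1b, which is more common on blood and endothelial cells. Receptor complexes built on adaptors and ubiquitin chains activate the IKK kinases, which mark the inhibitor Nfkbia (I kappa B alpha) for breakdown, so that dimers of Rela, Rel and Nfkb1 enter the nucleus. A slower branch through the kinase Map3k14 processes Nfkb2 and uses Relb. Nfkbia, Tnfaip3 (A20) and Birc3 (cIAP2) are themselves textbook targets of NF-kB, and in blood stem cells the pathway is known for its part in survival and in the response to inflammation.

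The promoter windows of 4 members are shown because the comparisons below turn on these genes and because the feedback genes are classical NF-kB targets. Each is the run of 130 bases just before the start of transcription listed by RefSeq (GRCm38.p6), read 5′ to 3′ on the strand of the gene, with matches to the kappa B consensus in capitals. The windows are chr11:23770970-23771099 on the minus strand for Rel, chr12:55492648-55492777 on the minus strand for Nfkbia, chr10:19015411-19015540 on the minus strand for Tnfaip3, and chr6:125349593-125349722 on the plus strand for Tnfrsf1a.
Rel: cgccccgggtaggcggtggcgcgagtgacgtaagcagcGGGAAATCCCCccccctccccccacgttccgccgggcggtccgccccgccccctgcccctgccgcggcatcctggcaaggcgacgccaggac
Nfkbia: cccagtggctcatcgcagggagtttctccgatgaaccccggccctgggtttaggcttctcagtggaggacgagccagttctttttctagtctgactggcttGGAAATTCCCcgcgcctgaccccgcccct
Tnfaip3: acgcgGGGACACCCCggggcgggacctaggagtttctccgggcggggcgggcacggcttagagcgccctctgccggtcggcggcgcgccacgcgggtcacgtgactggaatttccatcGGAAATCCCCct
Tnfrsf1a: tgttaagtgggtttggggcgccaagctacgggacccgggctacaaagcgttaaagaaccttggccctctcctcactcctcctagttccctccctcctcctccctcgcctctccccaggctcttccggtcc

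The 10-base consensus was searched on both strands of the 250 bases before each start, with overlapping matches merged in the print. Of the 8 members in the RefSeq table, 4 held a match: Rel, Nfkbia, Tnfaip3 and Nfkb2. Nfkb2 had GGGAATTCCC 39 to 30 bases before its first listed start, overlapped by a second match 1 base further on, and GGGGCTTTCC 11 to 2 bases before it. All 130 bases before that RefSeq start lie in exons annotated by GENCODE M21, so these matches are not simply upstream of transcribed sequence. Nfkbia had 1 match, 29 to 20 bases before its start and read on the opposite strand. In Tnfaip3 the matches lay 125 to 116 and 12 to 3 bases before the first start, and in Rel 92 to 82 bases before it. Tnfrsf1a, Tnfrsf1b, Rela and Birc3 held none in this window. Over the whole table, 7.25% of 32851 promoters held a match, or 8.23% of 27025 symbols. Nfkb1 and Relb were not in the table. A match describes letters only, and no binding was measured here.

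**Figure D1:**
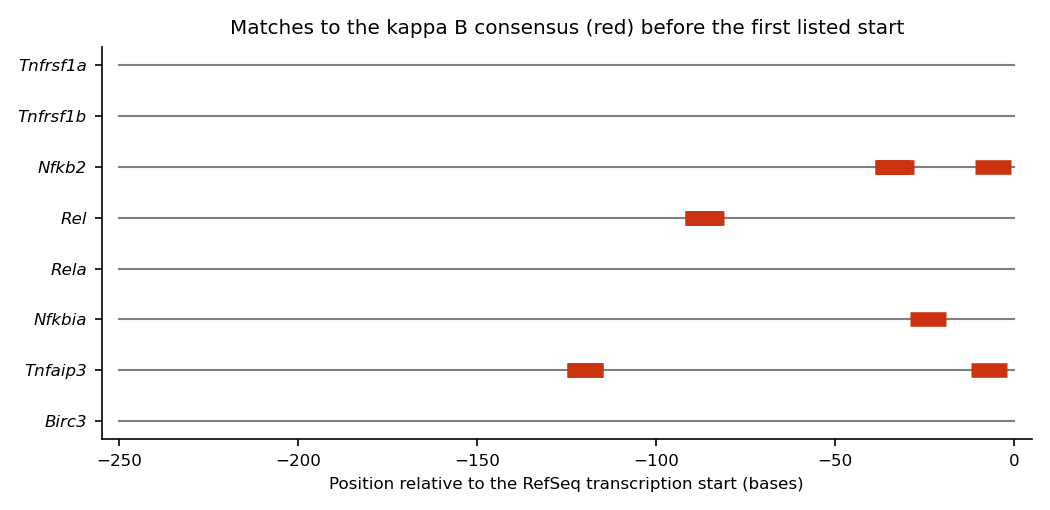
Matches to the kappa B consensus (red blocks, drawn to scale) on either strand of the 250 bases before the first listed RefSeq start, for the 8 members in the table; the horizontal axis is the distance from the start in bases. Nfkb2, Rel, Nfkbia and Tnfaip3 hold matches and the other 4 lines are empty.

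Levels are given in CPM, the counts of a gene scaled to a common library size with TMM factors, and group levels as mean ± SD. Total counts ran from 18892723 to 31611366 per library, with a median of 26158938, and 20260 to 28501 genes had a count. Phf6 itself fell in every population (log2 fold change KO over WT -3.96, -3.54 and -3.86 in LT-HSC, MPP2 and MPP3; edgeR adjusted p = 0.0371, 0.0104 and 0.00376). The sorted populations carried their markers: Procr, a stem cell receptor, was at 57.8 to 98.2 CPM in LT-HSC and at 30.0 CPM or less elsewhere, Cd48 at 19.1 CPM or less in LT-HSC and 165 CPM or more elsewhere, and Slamf1, which encodes CD150, at 1.99 CPM or less in MPP3. In all, 3 libraries, each KO, were rich in 1 transcript: Igkc in KO MPP2 1 (6256117 counts) and KO MPP3 1 (3417734), and CT010467.1 in KO MPP3 2 (1937176). Markers of B and plasma cells made up 36.8% of the counts of KO MPP2 1 and 20.4% of those of KO MPP3 1. They were not confined to KO, at 3.79% in WT MPP2 1, 2.68% in WT MPP2 2 and 1.94% in KO MPP2 2. Every other library had 0.0889% or less. KO MPP2 1 also had the highest summed markers of neutrophils (0.738% of counts) and of monocytes and macrophages (0.175%). Its TMM factor was 0.496, against 0.770 to 1.135 in the others, which raises every CPM value of this library above its unscaled share of counts. Neutrophil markers in WT LT-HSC 2 summed to 4499 CPM (0.51% of counts), against 6.84 to 59.6 CPM in the remaining LT-HSC libraries. In WT MPP3 1 they summed to 1851 CPM (0.199%). Sample titles of libraries numbered 1 and 2 carry numbers from 52 to 64, and those numbered 3 and 4 from 162 to 212. WT LT-HSC has no library of the second set, and KO LT-HSC 3, whose title carries 212, had the fewest genes with a count of the LT-HSC libraries (20297). In such bulk libraries, fewer cells of a type and less RNA per cell cannot be told apart.

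Per kilobase of merged exon, the inhibitor transcript Nfkbia was the most abundant member and the receptor Tnfrsf1a and the factor Rela came next. The mean level per kilobase over the 21 libraries was 85.7 ± 40.3 CPM for Nfkbia, 27.8 ± 7.79 CPM for Tnfrsf1a, 26.6 ± 8.09 CPM for Rela and 11.6 ± 1.80 CPM for Nfkb1. The remaining means per kilobase were 6.94 CPM for Birc3, 5.53 CPM for Tnfrsf1b, 3.38 CPM for Rel, 2.39 CPM for Nfkb2, 1.63 CPM for Relb and 1.18 CPM for Tnfaip3. This order depends on the merged exon length, which was 12061 bases for Nfkb1 and 1610 bases for Nfkbia. By median CPM without division by length, Nfkb1 was the highest member at 141 CPM, with Nfkbia at 121 CPM. Nfkb1 was the steadiest member, with a highest library 2.001 times its lowest. Relb and Rel varied most, 55.7 and 13.2 times between their extremes, the lowest Relb library, KO MPP2 3, holding 8 counts. Neighbours in each member's order of the 6 group means had overlapping ranges, except for Nfkb1, whose 2 WT LT-HSC libraries lay above those of the next group, KO MPP2.

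**Figure D2:**
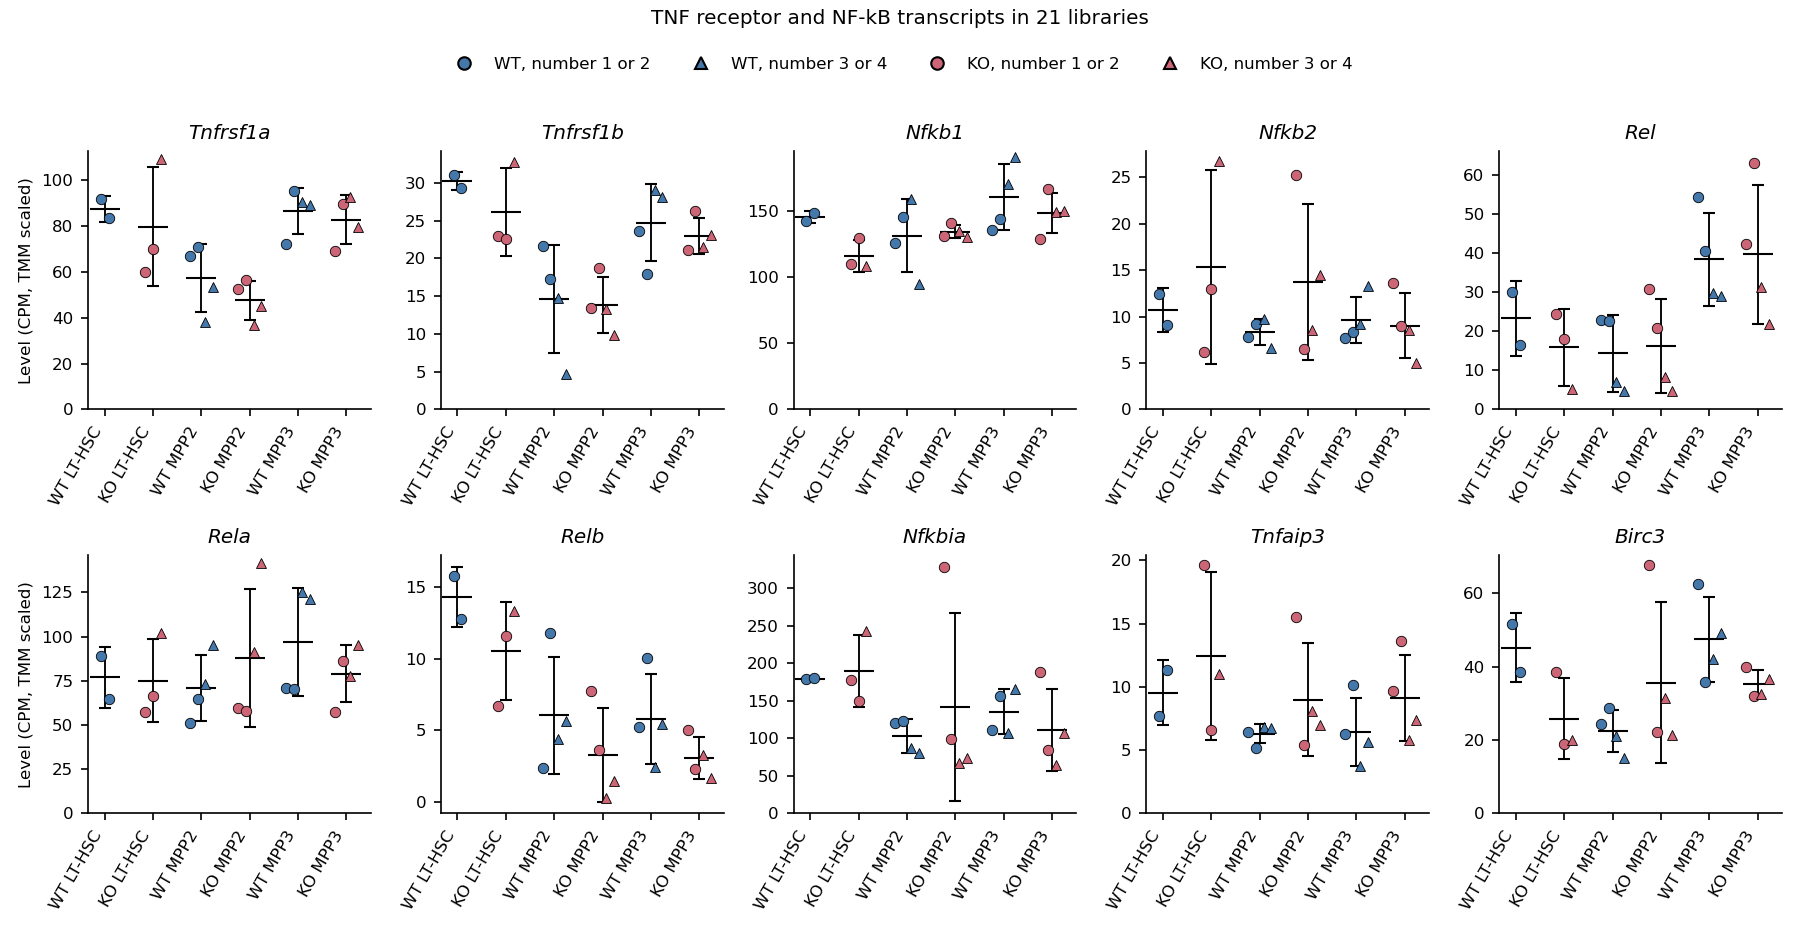
Level of each member (CPM, TMM scaled) in the 21 libraries, by group; circles are libraries numbered 1 or 2, triangles those numbered 3 or 4, and the bars are mean and SD. Rel lies highest in MPP3, Tnfrsf1a and Tnfrsf1b lie lowest in MPP2, and 1 KO MPP2 library stands far above the others for Nfkbia (329 CPM) and Birc3 (67.7 CPM).

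The receptors come first. Tnfrsf1a (ENSMUSG00000030341.17, chromosome 6, 125349362 to 125362484, plus strand, mm10) encodes TNF receptor 1, whose death domain recruits Tradd and Ripk1. Its level was 91.7 and 83.7 CPM in the 2 WT LT-HSC libraries and 60.1, 69.8 and 109 CPM in the 3 KO ones. In MPP2 it was 67.1, 70.7, 38.0 and 53.7 CPM in WT and 52.4, 56.3, 37.0 and 45.1 CPM in KO. In MPP3 it was 72.3, 95.3, 90.3 and 89.3 CPM in WT and 69.3, 89.8, 92.9 and 79.4 CPM in KO. In all, 7 of the 8 MPP2 libraries lay below every MPP3 library, and WT and KO overlapped in each population. Tnfrsf1b (ENSMUSG00000028599.10, chromosome 4, 145213463 to 145246870, minus strand) encodes TNF receptor 2, which lacks a death domain. It was at 31.0 and 29.4 CPM in WT LT-HSC and at 23.0, 22.5 and 32.8 CPM in KO LT-HSC. The MPP2 values were 21.7, 17.3, 14.7 and 4.74 CPM in WT and 13.5, 18.8, 13.2 and 9.84 CPM in KO. The MPP3 values were 23.7, 17.9, 29.0 and 28.2 CPM in WT and 21.1, 26.3, 21.5 and 23.1 CPM in KO. Every LT-HSC library lay above every MPP2 library for Tnfrsf1b, and MPP3 overlapped with both.

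Among the factors, Rel (c-Rel; ENSMUSG00000020275.9, chromosome 11, 23736847 to 23770970, minus strand) carries a transactivation domain and is best known in lymphoid cells. Rel stood at 30.2 and 16.4 CPM in WT LT-HSC and at 24.5, 18.03 and 5.203 CPM in KO LT-HSC. Its MPP2 levels were 22.9, 22.8, 7.13 and 4.78 CPM in WT and 30.9, 20.8, 8.41 and 4.78 CPM in KO. Its MPP3 levels were 54.4, 40.6, 29.8 and 29.0 CPM in WT and 42.4, 63.2, 31.3 and 21.9 CPM in KO. In MPP2 and MPP3 of both genotypes, the first pair of libraries lay above the second pair. Rela (p65; ENSMUSG00000024927.7, chromosome 19, 5637483 to 5648130, plus strand), the most widely expressed activating subunit, went the other way in MPP2. Its MPP2 levels were 50.9, 64.7, 73.3 and 95.1 CPM in WT and 59.8, 58.1, 91.4 and 142 CPM in KO. In LT-HSC it ran from 57.3 to 102 CPM and in MPP3 from 57.2 to 125 CPM, and WT and KO overlapped in all 3 populations. Relb (ENSMUSG00000002983.17, chromosome 7, 19606217 to 19629438, minus strand), the activating partner of processed Nfkb2, was at 15.8 and 12.8 CPM in WT LT-HSC and at 6.68, 11.6 and 13.3 CPM in KO LT-HSC. In MPP2 it was at 2.34, 11.8, 4.37 and 5.62 CPM in WT and at 7.75, 3.64, 0.284 and 1.46 CPM in KO. Relb was at 5.26, 10.04, 2.43 and 5.43 CPM in WT MPP3 and at 5.04, 2.28, 3.29 and 1.67 CPM in KO MPP3. Most LT-HSC libraries lay above the progenitors for Relb, with an overlap of 1 WT MPP2, 1 WT MPP3 and 1 KO MPP2 library with the lowest LT-HSC values.

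Nfkb1 (p105, the precursor of p50; ENSMUSG00000028163.17, chromosome 3, 135584655 to 135691547, minus strand) ran from 95.3 to 191 CPM over all libraries. Its group means lay between 116 ± 11.9 CPM in KO LT-HSC (n = 3) and 160.4 ± 25.0 CPM in WT MPP3 (n = 4). Another gene model, Gm43430, overlaps it on its own strand, so reads there could have been counted for either. Nfkb2 (p100, the precursor of p52; ENSMUSG00000025225.14, chromosome 19, 46304320 to 46312385, plus strand) ran from 4.98 to 26.7 CPM, highest in KO LT-HSC 3 (26.7 CPM) and KO MPP2 1 (25.2 CPM). Psd overlaps Nfkb2 on the opposite strand, and the library kit does not mark strand.

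The inhibitors and feedback genes follow. Nfkbia (ENSMUSG00000021025.8, chromosome 12, 55489410 to 55492647, minus strand) holds NF-kB dimers in the cytoplasm. It was at 179 and 180.4 CPM in WT LT-HSC and at 178, 149.7 and 243 CPM in KO LT-HSC. In MPP2 the values were 121, 124, 86.6 and 80.2 CPM in WT and 329, 99.4, 67.6 and 73.3 CPM in KO. In MPP3 they were 111, 157, 108 and 165 CPM in WT and 189, 84.1, 65.1 and 107 CPM in KO. KO MPP2 1, the library rich in immunoglobulin transcripts, was the highest of all 21 for Nfkbia, and all other MPP2 libraries lay below every LT-HSC library. Birc3 (ENSMUSG00000032000.17, chromosome 9, 7848699 to 7873186, minus strand) encodes a ubiquitin ligase of the receptor complexes. Birc3 was at 51.7 and 38.4 CPM in WT LT-HSC and at 38.5, 18.96 and 20.04 CPM in KO LT-HSC. Its levels in MPP2 were 24.5, 28.7, 21.1 and 15.2 CPM in WT and 67.7, 22.2, 31.4 and 21.2 CPM in KO. Its levels in MPP3 were 62.6, 35.7, 42.1 and 49.2 CPM in WT and 39.8, 31.98, 32.6 and 36.6 CPM in KO. In WT, all MPP3 libraries lay above all MPP2 libraries for Birc3, and in KO the same library, KO MPP2 1, lay above all of MPP3. Tnfaip3 (ENSMUSG00000019850.11, chromosome 10, 19000910 to 19015657, minus strand), which encodes an enzyme that edits ubiquitin chains and ends TNF signalling, ran from 3.73 to 19.6 CPM. Its highest libraries were KO LT-HSC 1 (19.6 CPM) and KO MPP2 1 (15.5 CPM).

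No member passed the test for a change with loss of Phf6 in LT-HSC, MPP2 or MPP3. The receptors and Relb had estimates below 0 in all 3 populations, and Tnfaip3 had estimates above 0. These signs were not stable in the receptors and Tnfaip3: Tnfrsf1a in LT-HSC was 0.03 without KO LT-HSC 1, Tnfrsf1b in MPP2 0.17 without WT MPP2 1, and Tnfaip3 in LT-HSC -0.11 without KO LT-HSC 1. By edgeR's quasi-likelihood test with Benjamini-Hochberg adjustment over 21100 genes, 0 of 30 member tests were called, 0 had an unadjusted p under 0.05, and 0 were called by DESeq2. Over all genes, 0.00474% were called in LT-HSC, 0.0142% for MPP2 and 0.00948% for MPP3. The median log2 fold change of the members was -0.17 in LT-HSC, 0.24 for MPP2 and -0.11 for MPP3, and that of all genes tested 0.0035, 0.012 and 0.0046.

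For Tnfrsf1a the log2 fold change, KO over WT and ± SE, was -0.14 ± 0.27 in LT-HSC, -0.27 ± 0.21 for MPP2 and -0.07 ± 0.21 for MPP3. For Tnfrsf1b it was -0.21 ± 0.42, -0.08 ± 0.33 and -0.10 ± 0.33. No receptor estimate exceeded 2 of its SEs, and the 95% interval for Tnfrsf1a in MPP3 reached from -0.51 to 0.37. Nfkb1 gave -0.33 ± 0.20 in LT-HSC, where its 3 KO libraries (108 to 129.98 CPM) lay below both WT libraries (143 and 149 CPM), but the edgeR adjusted p was 1. It gave 0.03 ± 0.15 in MPP2 and -0.11 ± 0.15 in MPP3. Relb gave -0.44 ± 0.88, -0.88 ± 0.70 and -0.91 ± 0.70, the widest errors of the 10. Single libraries moved its size: in MPP2 it was -1.74 without KO MPP2 1 and -0.33 without WT MPP2 2, and in MPP3 -0.51 without WT MPP3 2. Rel gave -0.55 ± 0.74, 0.17 ± 0.58 and 0.05 ± 0.58, Rela -0.03 ± 0.38, 0.31 ± 0.30 and -0.30 ± 0.30, and Nfkb2 0.51 ± 0.57, 0.72 ± 0.44 and -0.09 ± 0.44, in the same order of populations. None of the Rel, Rela and Nfkb2 estimates exceeded 2 of its SEs. In LT-HSC, Nfkb2 turned to -0.16 without KO LT-HSC 3, and Rel came to -0.04 without WT LT-HSC 1 and -0.13 without KO LT-HSC 3.

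Birc3 had the smallest p values of the members in LT-HSC and MPP2, with opposite signs. Its log2 fold change was -0.80 ± 0.42 in LT-HSC (edgeR adjusted p = 1), 0.67 ± 0.33 in MPP2 (edgeR adjusted p = 0.761) and -0.43 ± 0.33 in MPP3 (edgeR adjusted p = 1). The MPP2 value was 0.16 without KO MPP2 1, in which markers of B cells, neutrophils and monocytes were high, and the part of those cells in it was not tested. Nfkbia gave 0.08 ± 0.53, 0.47 ± 0.41 and -0.28 ± 0.41, and its MPP2 value turned to -0.36 without the same library. Tnfaip3 gave 0.38 ± 0.53, 0.51 ± 0.41 and 0.50 ± 0.41, and 0.12 in MPP2 without it. Without KO MPP2 1, Nfkb2 came to 0.25 and Rel turned to -0.35 in MPP2. The interval was narrow for some: for 3 members in LT-HSC, 4 of the 10 in MPP2 and 4 of the 10 in MPP3, the 95% interval excluded a change of 2-fold in either direction. For the others it did not exclude a change of that size.

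**Figure D3:**
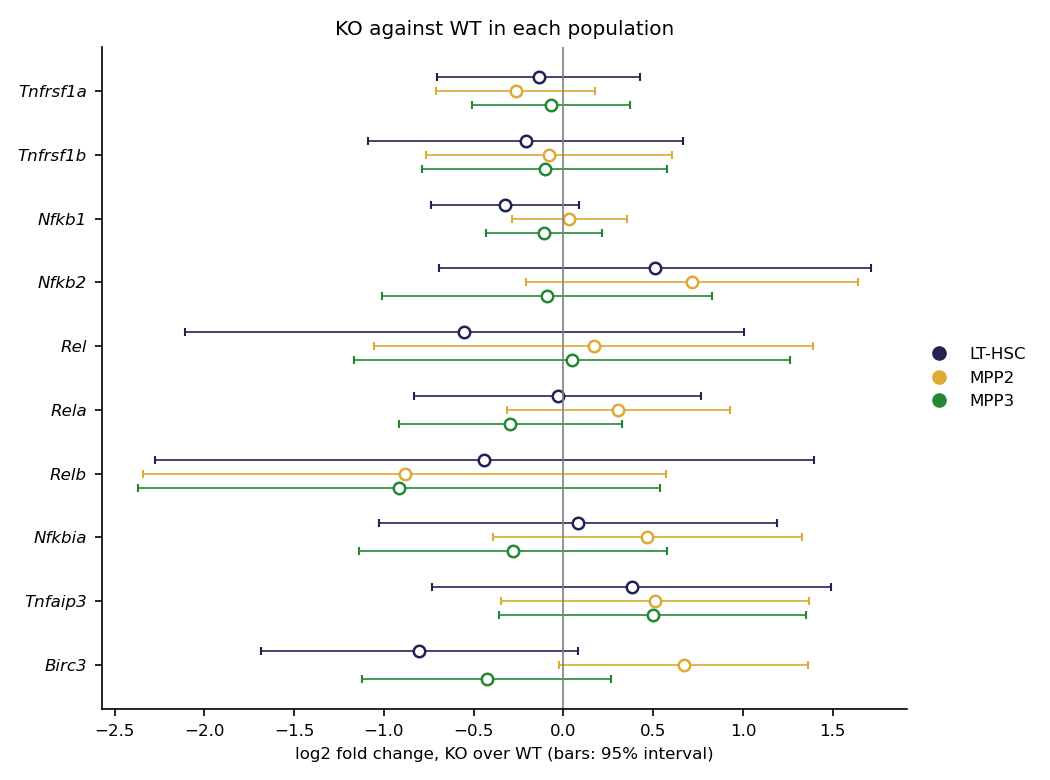
Log2 fold change of each member, KO over WT, in LT-HSC, MPP2 and MPP3; points are estimates from 1 edgeR fit, bars 95% intervals, and open points mark values that did not pass the adjusted threshold. All 30 intervals include 0, and those of Relb and Rel are the widest.

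With MPP2 and MPP3 counts added for each genotype and number, taken as 1 mouse by their title numbers, the members again gave no call. Of 17912 genes, 0.0112% were called, and none of the 10 members was, by edgeR or by DESeq2 (0 at an unadjusted p under 0.05). The log2 fold changes ran from -0.91 ± 0.54 for Relb to 0.43 ± 0.26 for Tnfaip3. In 8 of the 10 the 95% interval excluded a 2-fold change, and Tnfrsf1a gave -0.16 ± 0.13, Nfkb1 -0.07 ± 0.11 and Birc3 -0.03 ± 0.24. The KO effect was also compared between populations by interaction terms. Of 30 member tests 0 were called by edgeR or DESeq2, and 2 had an unadjusted p under 0.05, both of Birc3. Its KO effect in MPP2 exceeded that in LT-HSC by 1.47 ± 0.54 and that in MPP3 by 1.10 ± 0.47 on the log2 scale (edgeR adjusted p = 1 for both). Without KO MPP2 1 these differences were 0.95 and 0.59. Over all genes 0% were called in each of the 3 interactions.

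A list of 90 other genes of the pathway showed no call with loss of Phf6 either: 0 of 87 tested passed in any population, and 0 of 80 in the sums. These genes were chosen by role, with earlier results of these data known. Tnip3, an A20-binding inhibitor, had the smallest p in MPP3 (-1.17 ± 0.39, edgeR adjusted p = 0.880), and Map3k7, the kinase TAK1 that activates IKK, had 0.67 ± 0.27 there (edgeR adjusted p = 0.880). In MPP2 the 2 smallest p values were of Tnfrsf18, the receptor GITR, with -0.67 ± 0.24, and Tapbp, an antigen loading factor, with 0.61 ± 0.23 (edgeR adjusted p = 0.738 for both). In LT-HSC, Map3k7 had 0.67 ± 0.36 (edgeR adjusted p = 1), and Il1b, at 0 CPM in WT and a mean of 0.596 CPM in KO, was too low for a fold. In the sums the 2 smallest p values were of Map3k7 (0.60 ± 0.16) and Tnip3 (-1.12 ± 0.31; edgeR adjusted p = 0.995 for both). Tnf itself was low in every group, with means of 0.187 to 2.91 CPM.

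Between the populations, the only members called over both genotypes were the receptor genes. In the fit without a mouse block, Tnfrsf1a was called lower in MPP2 than in LT-HSC and than in MPP3. Tnfrsf1b was called lower in MPP2 than in LT-HSC. With the mouse as a block, both receptor calls against LT-HSC were lost. Rel had its highest mean in MPP3, and Relb and Nfkbia had theirs in LT-HSC, but these 3 missed the threshold of edgeR with all libraries and no term for the library number. Rel in MPP3 passed against MPP2 and against LT-HSC with the mouse as a block. Nfkb1, Nfkb2, Rela and Tnfaip3 were not called in any of the 3 comparisons.

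For Tnfrsf1a the mean was 82.9 ± 19.1 CPM in LT-HSC (n = 5), 52.5 ± 12.3 CPM in MPP2 (n = 8) and 84.8 ± 9.84 CPM in MPP3 (n = 8). The log2 fold change over both genotypes was -0.68 ± 0.17 for MPP2 over LT-HSC (edgeR adjusted p = 0.0186) and 0.70 ± 0.15 for MPP3 over MPP2 (edgeR adjusted p = 0.00799). MPP3 and LT-HSC differed by 0.02 ± 0.17 (edgeR adjusted p = 0.99). Within the libraries numbered 3 and 4, MPP3 exceeded MPP2 by 1.05 ± 0.15 (edgeR adjusted p = 0.00599), and within those numbered 1 and 2 by 0.38 ± 0.17 (edgeR adjusted p = 0.334). Among the libraries numbered 1 and 2, LT-HSC averaged 76.3 CPM (60.1 to 91.7) and MPP2 61.6 CPM (52.4 to 70.7), with overlapping ranges (n = 4 each). Only 1 LT-HSC library, KO LT-HSC 3, belongs to the other set. The excess of MPP3 over MPP2 was called in all 30 alternatives run, 21 of which leave out 1 library each. The difference from LT-HSC was called in 25 of 30: it was lost without WT LT-HSC 1 (edgeR adjusted p = 0.0890), WT LT-HSC 2 (0.0612, with a log2 fold change of -0.74) or KO LT-HSC 3 (0.0568), with only the compared groups in the fit (0.0511) and with the mouse as a block (0.0851).

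Tnfrsf1b had means of 27.7 ± 4.72 CPM in LT-HSC, 14.2 ± 5.30 CPM in MPP2 and 23.8 ± 3.78 CPM in MPP3. MPP2 was lower than LT-HSC by a log2 fold change of -0.98 ± 0.26 (edgeR adjusted p = 0.0263), with no overlap between their libraries. The call was lost in 6 of 30 alternatives, the 5 named for Tnfrsf1a (edgeR adjusted p = 0.101, 0.0896, 0.0617, 0.0688 and 0.0867 in the same order) and without KO MPP2 4 (0.0519). MPP3 exceeded MPP2 by 0.74 ± 0.23, short of the threshold (edgeR adjusted p = 0.0599) but past it in DESeq2 (adjusted p = 0.0156) and with a replicate block (edgeR adjusted p = 0.0367), though not with the mouse as a block (edgeR adjusted p = 0.0668). Within the libraries numbered 1 and 2, MPP2 differed from LT-HSC by -0.56 ± 0.22 (edgeR adjusted p = 0.219).

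Rel averaged 18.9 ± 9.39 CPM in LT-HSC, 15.3 ± 10.2 CPM in MPP2 and 39.1 ± 14.02 CPM in MPP3. MPP3 exceeded MPP2 by a log2 fold change of 1.36 ± 0.42 (edgeR adjusted p = 0.0575). With the library number as a replicate block the value was 1.64 ± 0.23 (edgeR adjusted p = 0.000367), with the mouse as a block 1.62 ± 0.23 (0.00152), and with DESeq2 1.37 ± 0.41 (adjusted p = 0.0104). Rel in MPP3 then also exceeded LT-HSC, by 1.67 ± 0.29 with the replicate block (edgeR adjusted p = 0.00136), against 1.02 ± 0.49 without it (0.268). The paired analysis also called Rel in single genotypes: 1.72 ± 0.32 for MPP3 over MPP2 in WT (edgeR adjusted p = 0.0106), and 1.56 ± 0.32 for MPP3 over MPP2 in KO (0.0161). Without the block these were 1.42 ± 0.59 (0.295) and 1.29 ± 0.59 (0.324). Within the libraries numbered 3 and 4, Rel in MPP3 exceeded MPP2 by 2.19 ± 0.28 (edgeR adjusted p = 0.00436), and within those numbered 1 and 2 by 1.01 ± 0.27 (edgeR adjusted p = 0.124).

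Relb was lower than in LT-HSC by -1.47 ± 0.55 in MPP2 and -1.54 ± 0.55 in MPP3 on the log2 scale (edgeR adjusted p = 0.111 and 0.110). Both passed in DESeq2 (adjusted p = 0.0487 and 0.0451), and neither passed with the replicate block. For Nfkbia the same differences were -0.61 ± 0.33 and -0.59 ± 0.33 (edgeR adjusted p = 0.279 and 0.359). Without KO MPP2 1 the MPP2 value was -1.04 ± 0.22 and passed (edgeR adjusted p = 0.00805), as did that of Relb (-1.91, edgeR adjusted p = 0.0274). The summed level of 14 immediate early genes, which rise with handling and stress as well as with signalling, ran from 352 to 1736 CPM in LT-HSC, from 153 to 652 CPM in MPP2 and from 194 to 642 CPM in MPP3. Its part in the Nfkbia and Relb differences was not tested. Birc3 in MPP3 exceeded MPP2 by 0.53 ± 0.23 (edgeR adjusted p = 0.183), by 0.58 with the replicate block (edgeR adjusted p = 0.0486), by 0.62 with the mouse as a block (edgeR adjusted p = 0.0524) and by 0.80 without KO MPP2 1 (edgeR adjusted p = 0.0146).

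Counted over both genotypes, 2 of 10 members were called for MPP2 against LT-HSC, both lower, beside 7.82% of all genes. None of 10 was called for MPP3 against LT-HSC (0 by edgeR, 1 by DESeq2, 1 at an unadjusted p under 0.05), beside 6.41% of all genes. Tnfrsf1a, 1 of 10, was called as higher for MPP3 against MPP2, beside 6.87% of all genes. Of the 30 tests, 3 were called. Within WT alone 0 of 30 member tests passed in edgeR (7 at an unadjusted p under 0.05, 1 by DESeq2), beside 0.63%, 1.1% and 1.2% of all genes for MPP2 against LT-HSC, MPP3 against LT-HSC and MPP3 against MPP2. Within KO alone 0 of 30 passed (8 at an unadjusted p under 0.05, 2 by DESeq2), beside 1.81%, 2.64% and 0.886%. In both genotypes Tnfrsf1a and Tnfrsf1b had no overlap between MPP2 and LT-HSC, and Tnfrsf1a none between MPP2 and MPP3. Such separation was also seen in other members. Between MPP2 and LT-HSC, 6 of the 10 members had no overlap in WT and 3 in KO. Between MPP3 and MPP2 there were 3 in WT and 2 in KO. The share without overlap over all genes was not counted, so whether these counts are unusual in such small groups cannot be told.

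**Figure D4:**
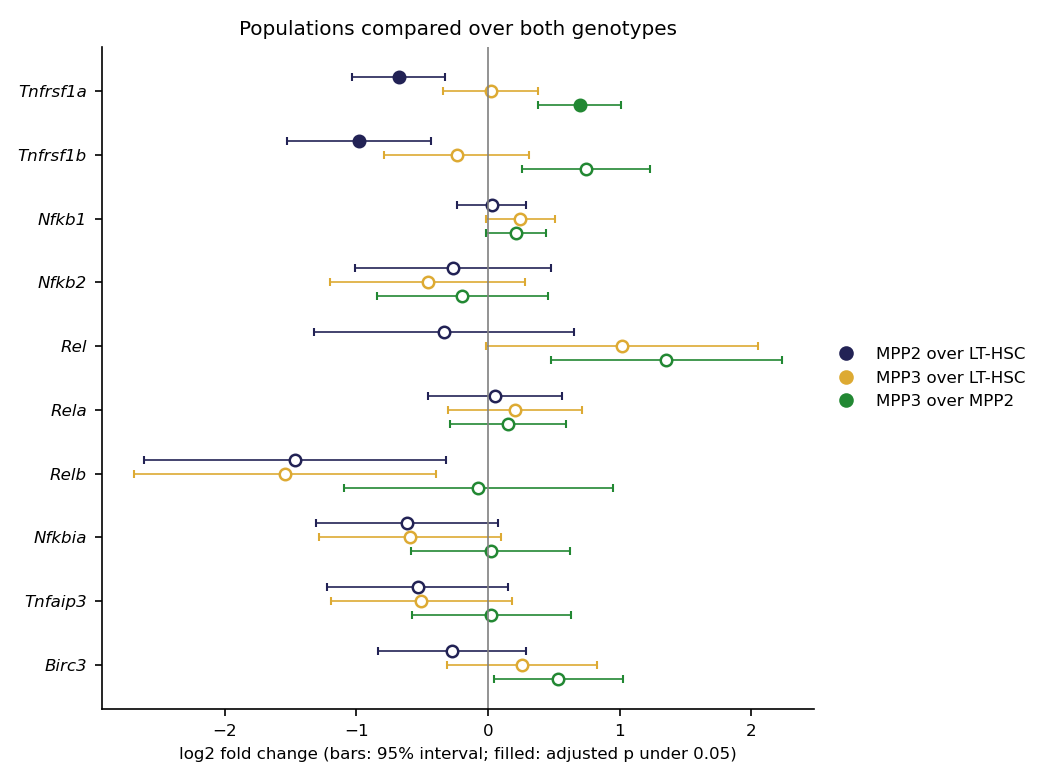
Log2 fold change of each member between populations over both genotypes; points are estimates, bars 95% intervals, and filled points passed an edgeR adjusted p of 0.05. The filled points are Tnfrsf1a and Tnfrsf1b for MPP2 over LT-HSC and Tnfrsf1a for MPP3 over MPP2, while Rel for MPP3 over MPP2 (1.36) is open.

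Of the 90 other pathway genes, 87 were tested, and 11 differed between MPP2 and LT-HSC over both genotypes (12.6%, beside 7.82% of all genes), 10 of them lower in MPP2, as were 873 of the 1649 called among all genes. Their median log2 fold change was -0.25, against 0.03 for all genes. Ltb, the ligand lymphotoxin beta, was lower by -3.24 ± 0.44 (edgeR adjusted p = 0.000249), with means of 90.9 CPM in WT LT-HSC and 13.8 CPM in WT MPP2. Tnip3 was lower by -2.20 ± 0.31 and Traf1, an adaptor that binds Tnfrsf1b with Traf2, by -2.01 ± 0.40 (edgeR adjusted p = 0.000302 and 0.00404). Tnip2, a partner of Tnfaip3, was lower by -0.68 ± 0.16 and Ier3, an immediate early target of NF-kB, by -1.32 ± 0.33 (edgeR adjusted p = 0.0147 and 0.0177). Tnfrsf25, death receptor 3, was also called, but had means of 0.0101 and 0.0573 CPM in WT and KO MPP2, below the level of 3 counts in any library (0.0985 CPM or more). All of these except Tnfrsf25 were detected in both populations, and Tnip3 was also called in WT alone and in KO alone.

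Between MPP3 and MPP2, 13 of the 87 were called (14.9%, beside 6.87% of all genes), 10 higher in MPP3, with a median log2 fold change of 0.26 against 0.01 for all genes. Cd27, a receptor of the same superfamily, was higher by 1.45 ± 0.22 (edgeR adjusted p = 0.000600), and Ltb by 2.27 ± 0.40 (edgeR adjusted p = 0.00197). Of the 5 inhibitors and I kappa B-like proteins on the list, 2 were called: Nfkbid and Bcl3, both nuclear, were higher in MPP3 by 1.32 ± 0.29 and 1.58 ± 0.42 (edgeR adjusted p = 0.00916 and 0.0278), while the related Nfkbiz had 1.34 ± 0.50 (edgeR adjusted p = 0.115). These genes, and Map3k14, which was higher by 1.45 ± 0.37, lay beyond the 6 genes of smallest p that the naming rule takes and were picked out with their values known. Tnfaip2, a TNF-induced gene, was lower in MPP3 by -3.00 ± 0.41 (edgeR adjusted p = 0.000371), and the chemokine Ccl3 was higher by 3.24 ± 0.65 (edgeR adjusted p = 0.00492). The inflammatory cytokine gene Il1b was called lower at a mean of at most 5.57 CPM in any group, and Tnip3 was higher by 1.27 ± 0.28 (edgeR adjusted p = 0.00860). Against LT-HSC, MPP3 had 8 calls of 87 (9.2%, beside 6.41% of all genes), 5 lower and 3 higher. Traf1 was lower by -2.28 ± 0.40 and Tnfaip2 by -2.17 ± 0.44, Cd27 was higher by 1.05 ± 0.26 and Cd69 by 1.95 ± 0.54, and Tnfrsf18 was lower by -0.65 ± 0.19 (edgeR adjusted p = 0.00124, 0.00394, 0.0159, 0.0337 and 0.0440). Ccl2 had means of 2.19 CPM or less in every group. Within WT alone 1 of the 87 was called in each of the 3 comparisons (Tnip3, then Tnfaip2 in both with MPP3). That is 1.15%, beside 0.63%, 1.1% and 1.2% of all genes for MPP2 against LT-HSC, MPP3 against LT-HSC and MPP3 against MPP2. Within KO alone 2 were called in each (Ltb and Tnip3, Traf1 and Cd27, Cd27 and Tnfaip2). That is 2.3%, beside 1.81%, 2.64% and 0.886% of all genes in the same order.

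Within MPP2, Rel and Rela differed between libraries numbered 1 and 2 and those numbered 3 and 4, a comparison added after the data were seen. Rel was higher in the 4 MPP2 libraries numbered 1 and 2 (20.8 to 30.9 CPM) than in the 4 numbered 3 and 4 (4.78 to 8.41 CPM), by a log2 fold change of 1.95 ± 0.27 (edgeR adjusted p = 0.000415). Rela was lower in them (50.9 to 64.7 CPM against 73.3 to 142 CPM), by -0.76 ± 0.19 (edgeR adjusted p = 0.0276). Neither gene's ranges overlapped between the sets. Each set held 2 WT and 2 KO libraries. Nfkbia had 1.08 ± 0.35 with no overlap and Tnfrsf1a 0.50 ± 0.15, short of the threshold (edgeR adjusted p = 0.0788 and 0.0582). In all, 2 of 10 members were called, beside 5.89% of all genes, and the members' median was 0.58 against 0.11 for all genes. The Rel call held without any 1 of the 16 progenitor libraries (edgeR adjusted p up to 0.00237). That of Rela was lost without WT MPP2 1, WT MPP2 4, KO MPP2 1, KO MPP2 2 or KO MPP2 4, with an edgeR adjusted p of up to 0.118.

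In MPP3 the same comparison called none of the members (0 by edgeR, 2 at an unadjusted p under 0.05; DESeq2 was not run on it), beside 0.422% of all genes. Rel was again higher in the libraries numbered 1 and 2, by 0.84 ± 0.26 with no overlap (edgeR adjusted p = 0.134), and Rela lower, by -0.54 ± 0.19 (edgeR adjusted p = 0.173). The difference between MPP2 and MPP3 in this effect was not called for any member (0 by edgeR, 3 at an unadjusted p under 0.05), beside 0.517% of all genes. The 3 were Rel with 1.11 ± 0.36, Tnfrsf1a with 0.60 ± 0.21 and Tnfrsf1b with 0.93 ± 0.40 (edgeR adjusted p = 0.274, 0.316 and 0.488). Of the other pathway genes, 18 of 87 were called in MPP2 (20.7%, beside 5.89% of all genes), 14 higher and 4 lower. Among all genes called in MPP2, 885 of 1242 were higher. In MPP3, 1 of the 87 was called (1.15%, beside 0.422% of all genes). The 4 genes named next were chosen after their values were seen. Cd27 was higher by 1.21 in MPP2 (edgeR adjusted p = 6.94e-05), Irf1, an interferon response factor, by 1.19 and Gadd45b, a stress-response gene, by 2.18, while Otulin, an enzyme that removes linear ubiquitin, was lower by -2.81 in MPP2 and by -2.35 in MPP3. Lineage markers moved with the sets as well. The summed level of 8 megakaryocyte genes was 324 to 507 CPM in the MPP2 libraries numbered 1 and 2 and 1508 to 2326 CPM in those numbered 3 and 4, that of 10 erythroid genes 748 to 1866 CPM against 1914 to 3293 CPM, and that of 9 dendritic cell genes, Flt3 among them, 1084 to 6009 CPM against 156 to 231 CPM. The 10 B and plasma cell genes summed to 19728 to 750390 CPM in the first set of MPP2 and to 52.8 to 100.5 CPM in the second. MPP2 libraries numbered 1 and 2 had 22394 or more genes with a count and those numbered 3 and 4 had 22103 or fewer. The part of cell make-up or of gene detection in the Rel and Rela differences was not tested.

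**Figure D5:**
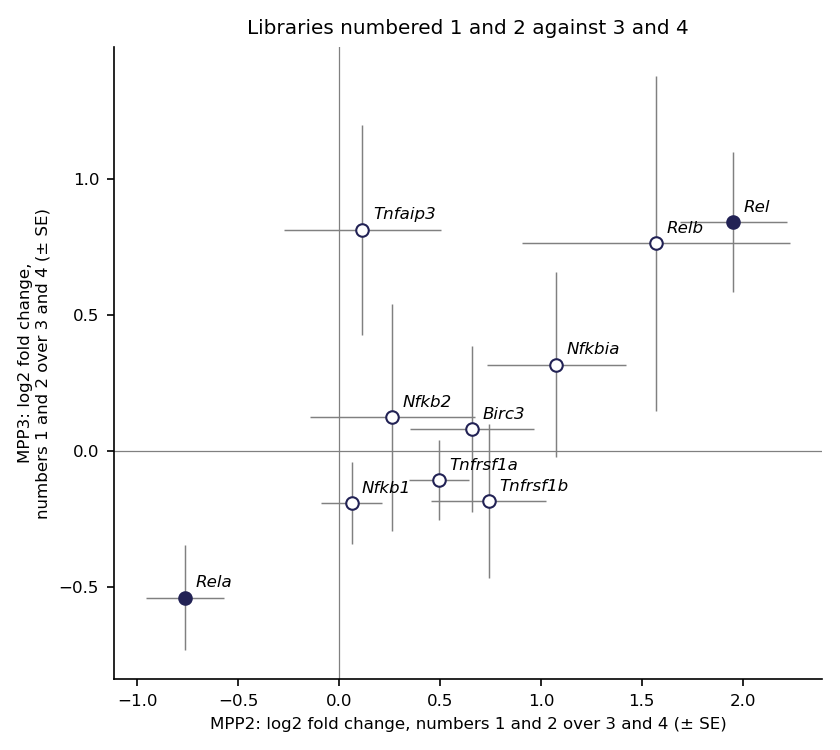
Log2 fold change of each member between libraries numbered 1 and 2 and those numbered 3 and 4, in MPP2 (horizontal) and MPP3 (vertical), with SE bars; filled points passed an edgeR adjusted p of 0.05 in MPP2. Rel lies far right (1.95) and Rela far left (-0.76) of 0 in MPP2, and both have the same sign in MPP3.

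Across the 21 libraries the members followed each other in part. Rel and Birc3 had a Pearson r of 0.71, Tnfrsf1a and Tnfrsf1b 0.69, and Relb and Nfkbia 0.68, while Rel and Rela had -0.37, the lowest of the 45 pairs. These are descriptions over libraries that share populations and appear to share mice. Among 9513 genes with a mean of at least 10 CPM, those most like Rel were Gfi1 (r = 0.92), a zinc finger repressor of blood cells, and Sgpl1 (0.92), and those most like Rela were Akt1 (0.86) and Patz1 (0.85). For Tnfrsf1a they were Galnt12 and Coro2a (0.89 each), for Tnfrsf1b Rpgrip1 (0.91) and Pcp4l1 (0.90), and for Nfkbia Grina (0.89) and Tmem176a (0.88). Relb was most like Ifitm1 and S100a6 (0.83 each), Nfkb1 like Dhx30 and Slc12a9 (0.83 each), and Nfkb2 like Tmem214 (0.77) and Kcnn4 (0.75). Tnfaip3 went with Gfpt1 (0.83) and Uvssa (0.80), and Birc3 with Fam120b (0.82) and Cdc42se2 (0.80).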

How the data were processed

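RNA-seq libraries of sorted LT-HSC, MPP2 and MPP3 from Phf6 WT and KO mice were analysed from the whole-number count table that the authors deposited, 54446 genes by 21 libraries, in raw counts. STAR and the mm10 build are named in the submitters' processing notes. The sources used here do not give the counting program or annotation. Symbols and exon lengths came from GENCODE M21, which held 54409 of the identifiers.

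Counts of 21100 genes that passed edgeR's filter (minimum count 10 over the 6 groups) were scaled by TMM and tested with edgeR 4.0.16 in R 4.3.3 (robust quasi-likelihood, 1 fit over all groups, Benjamini-Hochberg adjustment over all genes, threshold 0.05). Intervals are 95% t intervals of the fit, and the method was tested on simulated data. Alternatives were DESeq2 1.42.0, other scalings, no filter, terms for the library number and left-out libraries. The members and lists were chosen with earlier results of these data known. The text names the 10 members, the called pathway genes (at most 6 per comparison by p, or the 2 of smallest p) and the 2 genes most like each member by correlation of log CPM.

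The series describes 4 pairs of WT and KO mice, and equal numbers were taken as pairs. Deviations of same-numbered WT and KO libraries from their group means correlated at 0.207 to 0.282 in MPP2, 0.0807 to 0.141 in MPP3 and 0.0390 to 0.0417 in LT-HSC. Differently numbered ones reached 0.256 in MPP2 and 0.148 in MPP3, so these values do not separate pairs from the split of numbers 1 and 2 against 3 and 4. Libraries of 1 genotype and number appear to share a mouse by their title numbers, except that KO LT-HSC 3 follows those of KO mouse 4. The mouse block places it there and the replicate block keeps its labelled number. P-values over several populations without a mouse block treat related libraries as separate. At these depths 3 counts correspond to 0.0985 to 0.194 CPM.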

Additional observations from a re-analysis of the deposited data

Results flagged for a closer look

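Nfkbia in KO MPP2 was 329 CPM in library 1 and 99.4, 67.6 and 73.3 CPM in the other 3, a gap large enough to set that library apart from its group by Dixon's criterion. It was the single such case among the 40 groups of 4 libraries examined (10 members in 4 groups), and chance alone sets apart about 1 in 20. The same library held the most counts of immunoglobulin genes, the highest summed neutrophil and monocyte markers and the lowest TMM factor (0.496). Their part in the Nfkbia level was not tested.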

How the results depend on the processing

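No member was called for KO against WT, in the sums or in the interactions, under any alternative run. Between populations over both genotypes, 3 member tests were called, against 7 with DESeq2, 7 with the replicate block, 6 with a term that separates numbers 1 and 2 from 3 and 4, and 7 without the 3 KO libraries rich in Igkc or CT010467.1, an alternative added after seeing the data. It was 2 with only the compared groups in the fit, and 3 with the mouse as replicate block, where Tnfrsf1a and Rel for MPP3 against MPP2 and Rel for MPP3 against LT-HSC passed and both receptor calls against LT-HSC were lost. In WT alone the count of 0 became 1 with DESeq2, 1 with that term, 2 with the replicate block, 1 with the mouse as replicate block and 1 without those 3 libraries. In KO alone it became 2 in each of these 5 settings. Leaving out 1 library at a time gave 1 to 7 calls over both genotypes (1 without WT LT-HSC 1 or 2, 7 without KO MPP2 1), 0 to 1 in WT and 0 to 1 in KO. For libraries numbered 1 and 2 against 3 and 4 in MPP2, the 2 calls became 1 to 3 with 1 library left out. Of 1910 single values, 11 lost a call, 28 gained one and 0 reversed a called direction, while 93 that were never called changed sign. Over all genes the calls moved further: KO against WT had 1, 3 and 2 in LT-HSC, MPP2 and MPP3 with edgeR and 28, 35 and 38 with DESeq2, the sums 2 against 35, and the interactions 0 against 24, 26 and 15. MPP2 against LT-HSC over both genotypes had 1649 (540 to 2342 with 1 library left out, 1118 to 2928 otherwise). In WT the calls for MPP2 against LT-HSC, MPP3 against LT-HSC and MPP3 against MPP2 were 133, 232 and 253. They ranged over 0 to 409, 52 to 311 and 41 to 559 with 1 library left out, and over 46 to 849, 176 to 791 and 157 to 913 under other settings. In KO they were 381, 558 and 187, with 146 to 633, 298 to 627 and 12 to 239 with 1 library left out and 116 to 1245, 438 to 1377 and 6 to 858 otherwise. The cause of these changes was not tested. Relb had 8 to 450 counts per library, and WT LT-HSC had 2 libraries.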
